A study of Mus musculus with 57 samples.

Results

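Mouse blastocysts labelled as Taf12 mutant were compared with the pooled wild-type and heterozygous blastocysts of the same line by RNA sequencing of single embryos. The comparison used 13 of the 57 libraries of the study, chosen by genotype and stage as the labels give them. They were 3 Taf12 MUT embryos, 5 Taf12 WT and 5 Taf12 HET embryos, all collected at embryonic day 3.5 (E3.5) without treatment. The WT and HET embryos formed 1 control group of 10 to raise power, so a change shared by HET and MUT is reduced in it. The series text calls the lines knockouts, but the labels describe no allele, litter or sex, and they name no batch. A p-value here sets the difference between the groups against the spread between these embryos. An effect of litter or batch cannot be told apart from that of the genotype. Taf5 and Taf13 MUT embryos at E3.5 and Taf12 MUT outgrowths, blastocysts cultured for 72 h in serum-containing medium, serve below as points of reference.

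Taf12 encodes a histone-fold protein that pairs with TAF4 in TFIID, the factor that recognises core promoters and loads RNA polymerase II. It is also part of SAGA, a coactivator that acetylates and deubiquitinates histones. The blastocyst holds a pluripotent epiblast, a primitive endoderm that forms in response to FGF4 from the epiblast, and the trophectoderm that pumps fluid into the cavity.

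Levels are deposited FPKM values, and read numbers were recovered from their steps. Libraries held 7.82 to 10.17 M reads. Mean depth was 8.40 M in MUT and 9.20 M in the controls (exact permutation test, two-sided, p = 0.0559, and 0.258 without MUT 1). One mutant library, MUT 1, stood apart from the rest. It had 11875 genes above 0, against 14612 in MUT 2, 14195 in MUT 3 and 13762 to 15911 in the controls. The mean was 13561 ± 1475 in MUT (SD, n = 3) and 15079 ± 720.5 in the controls (n = 10, exact permutation test, two-sided, p = 0.035). Without MUT 1 the same exact test gave p = 0.273. MUT 1 also held the fewest reads, and the number of genes above 0 was not adjusted for depth. Mitochondrially encoded transcripts took 3.59, 1.97 and 2.91% of reads in MUT 1, 2 and 3 and 1.58 to 2.69% in the controls (exact permutation p = 0.0909, and 0.53 without MUT 1). Without MUT 2 the difference was 0.995 points (exact permutation p = 0.0152, the smallest that test can give). On the first principal component of log2(FPKM + 1), which held 19.9% of the variance, MUT 1 scored 150.3. MUT 2 and MUT 3 scored 11.7 and 13.6, and the controls −32.1 to −6.75. The 50 highest genes took 15.4 ± 1.01% of reads in MUT and 14.1 ± 0.478% in the controls, a difference of 1.29 points (exact permutation p = 0.014, and 0.106 without MUT 1). The tests of single genes and the counts of called list members are therefore given with all 13 libraries and again with MUT 1 left out. MUT 1 and the controls WT 2, HET 3 and HET 4 also carried reads of the Y-linked Ddx3y (1127, 1677, 1149 and 1133), while MUT 2 and MUT 3 had 0.

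**Figure D1:**
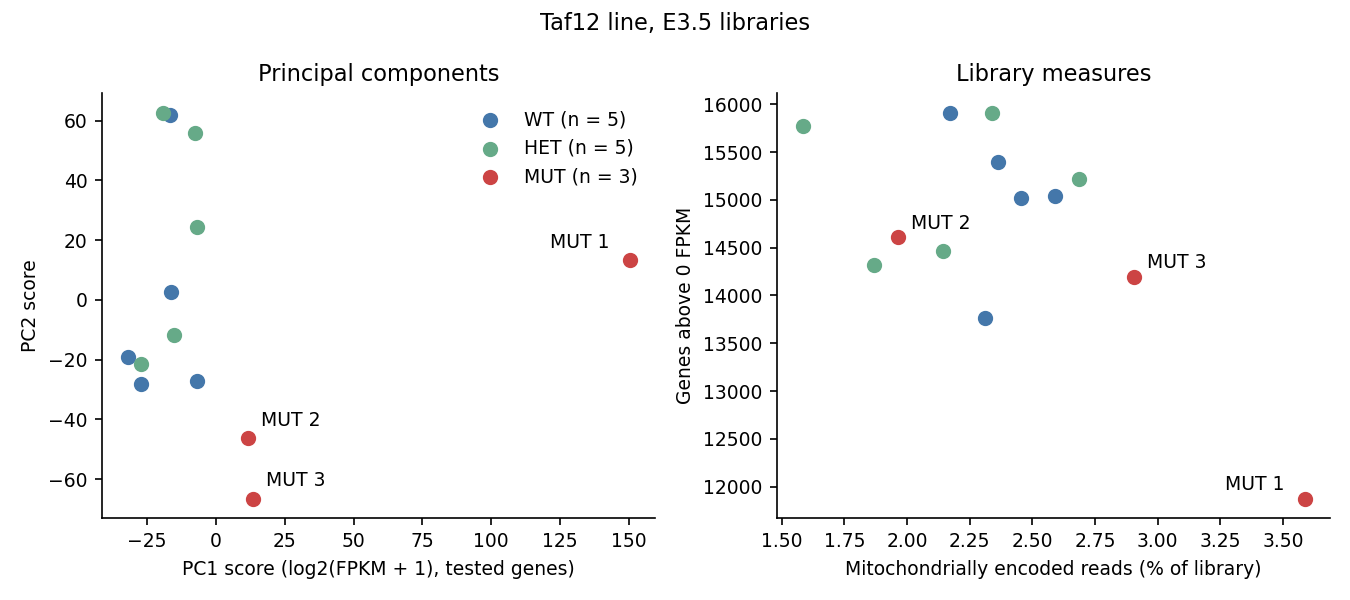
Left, scores of the 13 Taf12 E3.5 libraries on the first and second principal components of log2(FPKM + 1) over the 12751 tested genes. Right, genes above 0 FPKM against the percentage of mitochondrially encoded reads. Each point is 1 embryo, coloured by genotype. MUT 1 lies far to the right on the first component, at 150.3, and lowest in genes above 0, at 11875, while MUT 2 and MUT 3 lie near the controls on the first component and below them on the second.

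Each library held transcripts of the 3 blastocyst lineages. Pou5f1 of the epiblast, Gata6 of the primitive endoderm and Cdx2 of the trophectoderm were above 0 in each of the 13 libraries. These 3 were picked after their values were seen. Of 25 listed epiblast markers 18 to 21 were above 0 in MUT and 22 to 24 in the controls, with the 18 in MUT 1 and 21 in MUT 2 and in MUT 3. Of 22 primitive endoderm markers 12 to 16 were above 0 in MUT and 15 to 20 in the controls. For 25 trophectoderm markers the numbers were 22 to 24 and 24 to 25. Among all genes 11875, 14612 and 14195 were above 0 in MUT 1, 2 and 3 and 13762 to 15911 in the controls. The marker numbers were not adjusted for this or for depth. Marker lists of other cell types were low. Their summed reads stood at 7.93 to 10.2 reads per M in MUT and 2.55 to 16.8 in the controls for 12 granulosa and cumulus markers. They stood at 11 to 18.7 reads per M in MUT and 3.23 to 44.8 in the controls for 12 uterine markers, and at 6.15 to 15.1 reads per M in MUT and 0 to 13.2 in the controls for 12 fibroblast markers. For 12 blood markers the range was 0 to 18.2 reads per M in MUT and 0 to 276 in the controls. The highest control, HET 1, held 1432 of its reads in Hbb-bs. Of these 48 markers 8 reached the level for testing and 0 were called by limma, against 3.46% of all tested genes. An unadjusted p under 0.05 was reached by 0 of the 8, against 2397 of all 12751 tested genes.

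The effect of the Taf12 MUT label was tested with limma on log2(FPKM + 1) for 12751 genes that reached FPKM 1 in at least 3 libraries. Genes with a Benjamini-Hochberg adjusted p under 0.05 count as called. In brackets below, log2 is the difference of mean log2(FPKM + 1), MUT minus controls, which understates the change of low genes, and folds without that word are ratios of mean FPKM. With all libraries 441 genes (3.46%) were called, of which 159 (1.25%) were higher in MUT and 282 (2.21%) lower. An unadjusted p under 0.05 was reached by 2397 of the 12751. Without MUT 1, 221 (1.73%) were called, 81 (0.635%) higher and 140 (1.1%) lower. The calls shared by both fits numbered 151, of which 54 were higher and 97 lower, while 290 were called only with MUT 1 and 70 only without it. Each of the 441 kept its direction when MUT 1 was left out. As MUT 2, MUT 3 and the 10 controls are in both fits, this was nearly fixed in advance. A smaller set of 107, 38 higher and 69 lower, stayed called when each of the 13 libraries was left out in turn. Of the tested genes 480 stood under FPKM 1 in all but at most 2 controls, so they were tested only because of the mutants. These hold 13 of the 159 called higher, and a call of such a gene supports nothing. The MUT and control libraries did not overlap in 361 of the 441, against 678 (5.32%) of all tested genes. Of the tested genes 595 had 0 reads in all 3 MUT libraries, and 21 of these were called. Such a gene can only be called lower, as 282 (2.21%) of all tested genes were. An absence of reads in the mutants was thus not enough for a call. No called gene had 0 reads in every control. The median tested gene stood at log2 −0.08, and at −0.03 without MUT 1. The number of calls was far lower with controls of 1 genotype, which also cut their number from 10 to 5. The share of size and of genotype in this was not tested. Against WT alone 33 genes were called and against HET alone 39. With voom on the recovered reads 413 were called, 237 higher and 176 lower, 288 of them in common, so the share of calls that were higher depended on the test. The authors' deposited table, made with the same pooling, holds 1294 genes at an adjusted p under 0.05, 431 higher and 863 lower, which is 9.71% of its 13330 genes with an adjusted p. It calls 409 of the 441, each in the same direction, but it rests on the same 13 libraries and is no independent support. These are 92.7% of the calls here and 31.6% of those in the authors' deposited table.

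**Figure D2:**
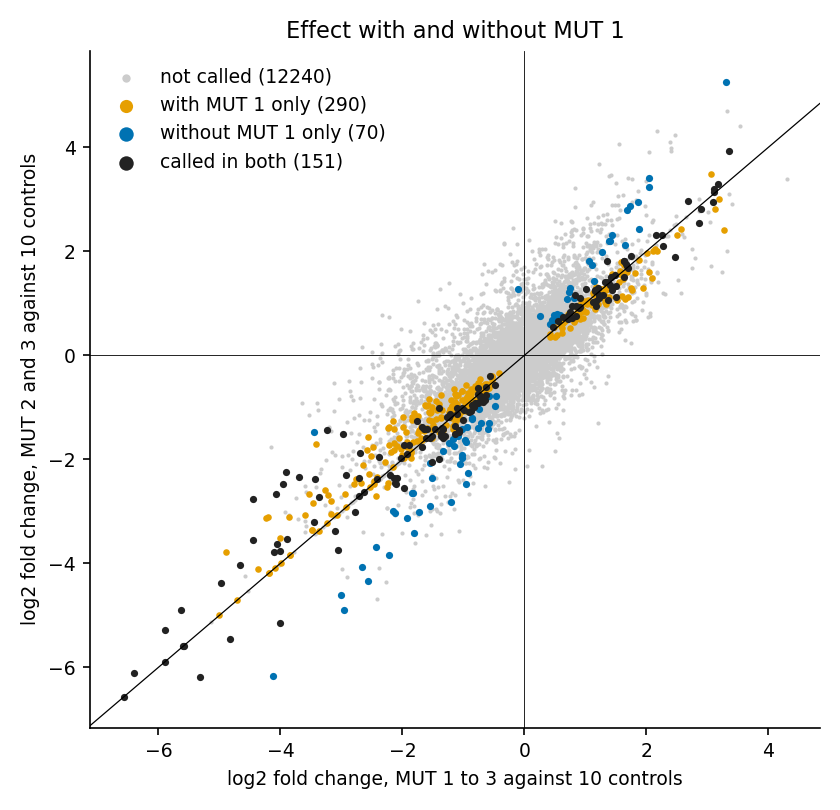
Difference of mean log2(FPKM + 1) between Taf12 MUT and the 10 controls for each tested gene, with MUT 1 to 3 on the x axis and with MUT 2 and 3 on the y axis. Black points are the 151 genes called in both, orange the 290 called only with MUT 1 and blue the 70 called only without it. The line marks equal values, and orange points lie mostly nearer 0 on the y axis than on the x axis.

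Taf12 mRNA itself was not lower in the libraries labelled MUT. It stood at 67.5, 62.7 and 56.3 FPKM in MUT 1, 2 and 3 and at 36.1 to 51.3 (median 42.7) in the controls, so the 3 mutant libraries lay above every control (log2 0.52, SE 0.17, adjusted p = 0.104, and 0.46 with adjusted p = 0.265 without MUT 1). In the authors' deposited table it is higher at an adjusted p of 0.00939. The genotype is thus taken from the label, and a transcript level cannot show what an allele does to the protein. Taf13, whose product pairs with TAF11 in TFIID, rose 3.15-fold. It was at 119, 79.8 and 106 FPKM in MUT 1, 2 and 3 and at 23.8 to 42 (median 29.2) in the controls, with no overlap (log2 1.63, SE 0.21, adjusted p = 0.00196, and 1.51 with adjusted p = 0.0121 without MUT 1). Taf6, the partner of TAF9, rose 2.81-fold, with 727, 685 and 264 FPKM in MUT 1, 2 and 3 and 123 to 265 (median 197) in the controls (log2 1.39, SE 0.30, adjusted p = 0.0247, and 1.13 with adjusted p = 0.11 without MUT 1). MUT 3 lay just under the highest control, and the call was lost without MUT 1 or MUT 2 (adjusted p = 0.0882). Taf5, the scaffold subunit of TFIID, was at 80.6, 62.6 and 90 FPKM in MUT 1, 2 and 3 and 2.72 to 53.4 (median 15.3) in the controls (log2 2.17, SE 0.58, adjusted p = 0.0586, and 2.13 with adjusted p = 0.161 without MUT 1). It passed the test without WT 3 (adjusted p = 0.0304) or HET 1 (adjusted p = 0.0365). Of 16 TFIID genes 13 were tested, 2 rose and 0 fell, 15.4% against 3.46% of all genes (median log2 0.52, 0.46 without MUT 1), and with MUT 1 left out 1 was called higher and 0 lower. Tada3, of the histone acetyltransferase module of SAGA, fell 2.07-fold. Its 3 mutant values were close together at 30.7, 30.5 and 31.5 FPKM in MUT 1, 2 and 3, under 51.9 to 75.3 (median 64.1) in the controls (log2 −1.02, SE 0.14, adjusted p = 0.00254, and −1.01 with adjusted p = 0.012 without MUT 1). Among 20 tested SAGA genes Tada3 fell and Sf3b5, shared with a splicing complex, rose 1.35-fold (log2 0.43, SE 0.10, adjusted p = 0.0418, and 0.36 with adjusted p = 0.158 without MUT 1). The Sf3b5 call was lost without 7 of the 10 controls in turn (adjusted p up to 0.0651), MUT 1 or MUT 3 (adjusted p = 0.0984). These are 10% of the list against 3.46%, and with MUT 1 left out 0 were called higher and 1 lower.

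Parts of the RNA polymerase II machinery rose. Of 29 tested genes of polymerase II and the general factors 4 rose and 1 fell, 17.2% against the 3.46% of all genes, and with MUT 1 left out 3 were called higher and 0 lower. These 3 include a gene that was not called with all libraries. Polr2a, the largest subunit, rose 2.7-fold with 675, 846 and 420.4 FPKM in MUT 1, 2 and 3 and 157 to 319.8 (median 247) in the controls (log2 1.41, SE 0.25, adjusted p = 0.00997, and 1.35 with adjusted p = 0.0415 without MUT 1). Gtf2a1 of TFIIA rose 2.56-fold with 74.8, 80.8 and 78.6 FPKM in MUT 1, 2 and 3 and 20.3 to 50 (median 29.4) in the controls (log2 1.37, SE 0.24, adjusted p = 0.0102, and 1.40 with adjusted p = 0.034 without MUT 1). In both genes the groups did not overlap. Gtf2b, encoding TFIIB, rose 2.45-fold to 112 ± 43.7 against 45.7 ± 8.51 FPKM (log2 1.21, SE 0.25, adjusted p = 0.0219, and 0.98 with adjusted p = 0.0984 without MUT 1). The Gtf2b call was lost without MUT 1 or MUT 3 (adjusted p = 0.08). Polr2b, the second subunit, rose 1.54-fold (log2 0.64, SE 0.15, adjusted p = 0.0383, and 0.71 with adjusted p = 0.0721 without MUT 1). The Polr2b call was lost without 7 of the 10 controls in turn (adjusted p up to 0.0585), MUT 1, MUT 2 (adjusted p = 0.099) or MUT 3 (adjusted p = 0.1). Gtf2e1 of TFIIE fell 1.86-fold (log2 −0.85, SE 0.21, adjusted p = 0.0456, and −0.83 with adjusted p = 0.128 without MUT 1). The Gtf2e1 call was lost without 6 of the 10 controls in turn (adjusted p up to 0.0696), MUT 1, MUT 2 (adjusted p = 0.0765) or MUT 3 (adjusted p = 0.117). Of 32 Mediator genes, the complex that links activators to the polymerase, Med21 rose 2.71-fold (log2 1.34, SE 0.28, adjusted p = 0.0227, and 0.99 with adjusted p = 0.101 without MUT 1). It is 3.12% of the list, near the 3.46% of all genes. The Med21 call was lost without MUT 1, so with MUT 1 left out 0 were called.

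Histone genes were among the largest rises. Of 36 histone genes 22 were tested, and 5 rose and 0 fell, 22.7% against 3.46% of all genes, while the list's median stayed near 0 (median log2 0.04, 0.11 without MUT 1). Of the list, with MUT 1 left out 4 were called higher and 0 lower. These 4 include a gene that was not called with all libraries. H2bc4, an H2B gene, rose 11-fold. It was at 67.6, 189 and 41.4 FPKM in MUT 1, 2 and 3 and at 3.32 to 15.1 (median 8.48) in the controls (log2 3.17, SE 0.48, adjusted p = 0.00444, and 3.30 with adjusted p = 0.0158 without MUT 1). H1f2, a linker histone gene, rose 13.4-fold, with 16.3, 27.1 and 14.1 FPKM in MUT 1, 2 and 3 and 0 to 3.25 (median 1.07) in the controls (log2 3.12, SE 0.42, adjusted p = 0.00207, and 3.20 with adjusted p = 0.00967 without MUT 1). The groups were far apart in both genes. H3f3b, which encodes the replacement histone H3.3, rose 1.87-fold with 3335, 4056 and 3094 FPKM in MUT 1, 2 and 3 and 1404 to 2279.9 (median 1888) in the controls (log2 0.91, SE 0.14, adjusted p = 0.00607, and 0.94 with adjusted p = 0.0198 without MUT 1). H2ax, the variant marked at DNA breaks, rose 1.93-fold (log2 0.92, SE 0.18, adjusted p = 0.0152, and 0.91 with adjusted p = 0.0555 without MUT 1). The H2ax call was lost without MUT 1 or MUT 2 (adjusted p = 0.067). H2bc21 rose 7.88-fold (log2 1.88, SE 0.42, adjusted p = 0.0288, and 1.83 with adjusted p = 0.0922 without MUT 1). The H2bc21 call was lost without MUT 1 or MUT 3 (adjusted p = 0.0877). The authors' deposited table does not call H2bc21 (adjusted p of 0.316). Reads of near-identical histone copies may have been split between genes by the counting, which is not given in the sources used here.

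**Figure D3:**
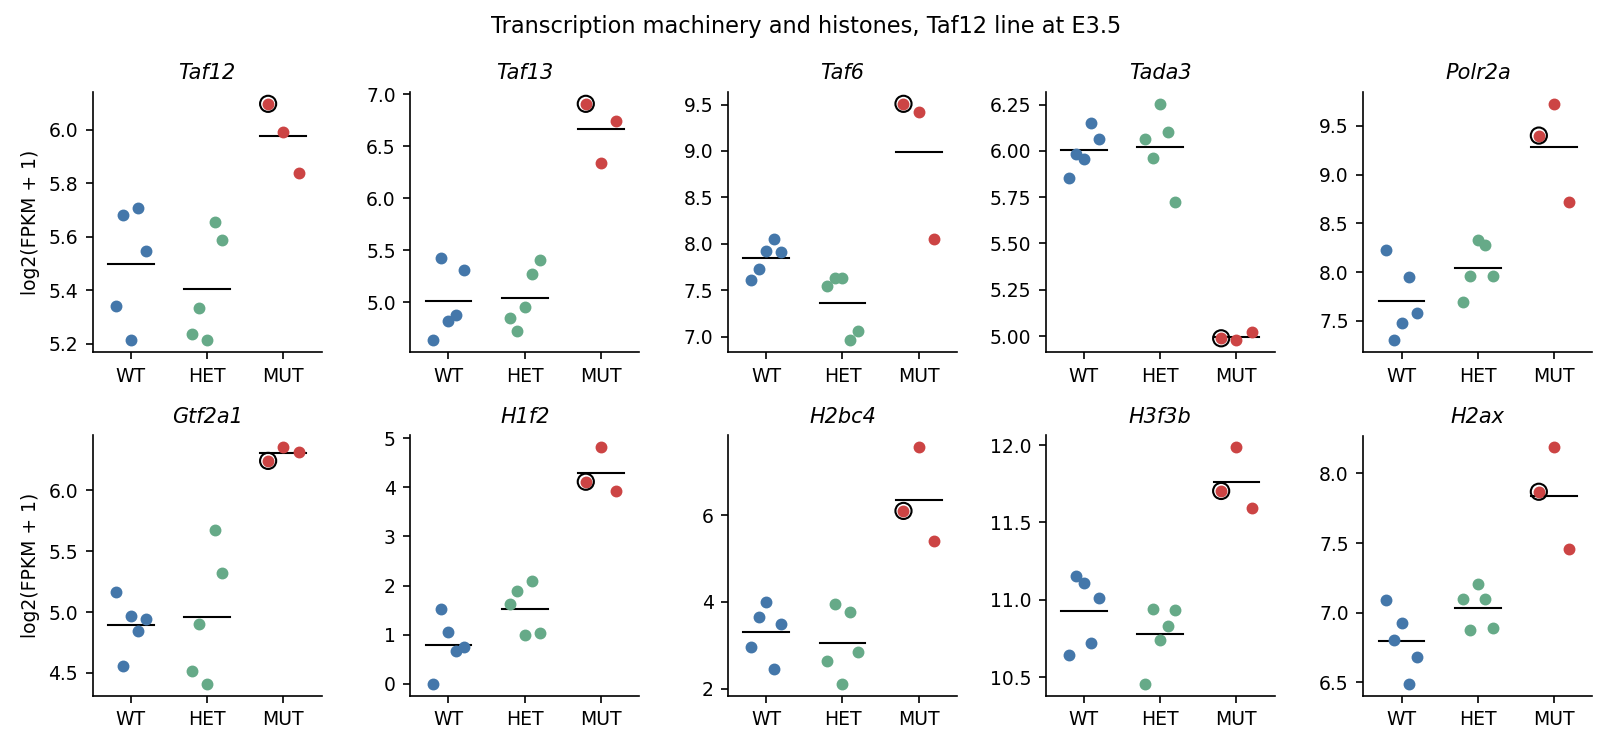
log2(FPKM + 1) of 10 genes in each Taf12 E3.5 library, by genotype. Each point is 1 embryo (WT n = 5, HET n = 5, MUT n = 3), bars are group means and the ringed point is MUT 1, and axes need not start at 0. The MUT points lie above every control in Taf12, Taf13, Polr2a, Gtf2a1, H1f2, H2bc4, H3f3b and H2ax, and under every control in Tada3.

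TFIID contacts the region around the transcription start, so core promoter sequence is shown for 3 of the genes that rose with and without MUT 1, and for Taf12. The RefSeq promoter windows of build GRCm38.p6 were searched for the TATA-box letters TATAAA, read on the gene's strand and beginning 40 to 15 bases before the start. Of the tested genes 9406 had a window, and 129 of these (1.37%) hold the letters there. Among all 32851 RefSeq windows, 692 (2.11%) hold them there, and 4473 (13.6%) hold them anywhere in 300 bases on either strand. Among the called genes with a window, 6 of 123 that rose and 3 of 221 that fell hold the motif near the start. Windows were matched for 77.4% of the genes that rose and 78.4% of those that fell, under the 80% needed, so a check of shares is void. Those that rose in both fits and hold it are Taf13, Polr2a and H3f3b. They were chosen after their values were seen, and the match describes letters, not a bound site. The 100 bases before the start are printed 5′ to 3′, with TATAAA near the start in capitals, which the Taf12 window does not have.
Taf13 chr3:108571599-108571698 (plus strand): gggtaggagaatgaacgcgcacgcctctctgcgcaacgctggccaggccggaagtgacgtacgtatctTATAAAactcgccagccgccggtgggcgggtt
Polr2a chr11:69758634-69758733 (minus strand): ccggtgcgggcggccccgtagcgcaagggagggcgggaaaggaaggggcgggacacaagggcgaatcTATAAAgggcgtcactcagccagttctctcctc
H3f3b chr11:116024505-116024604 (minus strand): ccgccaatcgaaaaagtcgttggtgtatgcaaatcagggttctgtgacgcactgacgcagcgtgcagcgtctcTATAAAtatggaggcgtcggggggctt
Taf12 chr4:132274275-132274374 (plus strand): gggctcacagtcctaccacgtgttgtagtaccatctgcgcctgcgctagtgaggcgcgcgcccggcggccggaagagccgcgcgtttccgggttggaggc

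Fgf4, Fgf10, Etv5 and Spry1 of the FGF pathway fell. Of 21 tested members of the FGF and ERK feedback list 4 fell and 0 rose, 19% against 2.21% of all genes, and 18 of the 21 differences were negative (median log2 −0.72, −0.64 without MUT 1). Of the 21, with MUT 1 left out 0 were called higher and 3 lower. Fgf4, the epiblast ligand that instructs primitive endoderm, fell 53.4-fold. It was at 5.03, 0 and 0 FPKM in MUT 1, 2 and 3 and at 23.3 to 237 (median 77.1) in the controls (log2 −5.33, SE 0.68, adjusted p = 0.00191, and −6.19 with adjusted p = 0.00213 without MUT 1). MUT 2 and MUT 3 had 0 reads, at least 72.9-fold lower with the mutants set at a floor of 3 reads per library, as for each such bound below. Fgf10, a ligand known from limb and lung, fell 26.3-fold with 0, 20.3 and 0 FPKM in MUT 1, 2 and 3 and 28.8 to 518 (median 169.7) in the controls (log2 −5.62, SE 0.90, adjusted p = 0.0064, and −4.89 with adjusted p = 0.0361 without MUT 1). Etv5, an ETS factor induced by FGF through ERK, fell 8-fold with 0, 11.9 and 34.7 FPKM in MUT 1, 2 and 3 and 75.1 to 192 (median 115) in the controls (log2 −3.95, SE 0.72, adjusted p = 0.0118, and −2.48 with adjusted p = 0.0107 without MUT 1). In these 3 genes no mutant library reached the lowest control. Spry1, a feedback inhibitor of the pathway, was low throughout at 0, 0.702 and 0 FPKM in MUT 1, 2 and 3 and 0.844 to 2.19 (median 1.69) in the controls (log2 −1.15, SE 0.27, adjusted p = 0.0365, and −1.02 with adjusted p = 0.133 without MUT 1). Its call was lost without 7 of the 10 controls in turn (adjusted p up to 0.0585), MUT 1 or MUT 3 (adjusted p = 0.111). Dusp6, a phosphatase induced by ERK, was at 20 ± 2.24 against 49.9 ± 26.8 FPKM and did not pass the test (log2 −1.05, SE 0.52, adjusted p = 0.298, and −1.13 with adjusted p = 0.425 without MUT 1).

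Of 23 tested epiblast genes 3 fell and 0 rose, 13% against 2.21% of all genes called lower, and 21 differences were negative (median log2 −0.78, −0.37 without MUT 1). Of the 23, with MUT 1 left out 0 were called higher and 3 lower. Besides Fgf4 these were Tdgf1 and Utf1. Tdgf1, the Nodal co-receptor, fell 7.52-fold with 239.9, 124 and 175 FPKM in MUT 1, 2 and 3 and 456 to 2796 (median 1265) in the controls (log2 −2.77, SE 0.45, adjusted p = 0.0064, and −3.00 with adjusted p = 0.0158 without MUT 1). Utf1, a chromatin factor of pluripotent cells, fell 4.33-fold with 3.14, 84.2 and 87.4 FPKM in MUT 1, 2 and 3 and 191 to 390.0 (median 231) in the controls (log2 −2.97, SE 0.67, adjusted p = 0.031, and −1.51 with adjusted p = 0.0107 without MUT 1). MUT 1 was far lower than MUT 2 and MUT 3, which still lay under every control, and the call was lost without HET 5 (adjusted p = 0.05). Nanog was at 15.5, 64.3 and 36.1 FPKM in MUT 1, 2 and 3 and 48.5 to 76.4 (median 62.1) in the controls (log2 −0.89, SE 0.30, adjusted p = 0.127, and −0.36 with adjusted p = 0.474 without MUT 1). It passed the test only without MUT 2 (adjusted p = 0.0194), the mutant with the highest level. Pou5f1 was at 779, 1219 and 1367 FPKM in MUT 1, 2 and 3 and 826 to 2097 (median 1603) in the controls (log2 −0.54, SE 0.24, adjusted p = 0.252, and −0.29 with adjusted p = 0.635 without MUT 1). The summed level of the epiblast list was 10854 to 12561 reads per M in MUT and 10358 to 13023 in the controls. In whole embryos fewer cells of a type and less RNA per cell cannot be told apart.

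Of 19 tested primitive endoderm genes 1 fell, 5.26% against 2.21% of all genes called lower (median log2 −0.65, −0.70 without MUT 1), and with MUT 1 left out 0 were called. Lamb1, a basement membrane laminin chain, fell 5.95-fold with 20.9, 21.7 and 5.44 FPKM in MUT 1, 2 and 3 and 31.2 to 227 (median 56.3) in the controls (log2 −2.42, SE 0.58, adjusted p = 0.0386, and −2.71 with adjusted p = 0.0696 without MUT 1). Its call was lost without 5 of the 10 controls in turn (adjusted p up to 0.0585), MUT 1, MUT 2 (adjusted p = 0.0544) or MUT 3 (adjusted p = 0.14). Sox17, a transcription factor of this lineage, had 0 reads in each mutant and 3199 reads over the controls. The 10 controls split, with 0 reads in WT 3 and HET 4 and 243 to 652 in the other 8. It did not pass the test with all libraries (log2 −2.06, SE 0.65, adjusted p = 0.104, and −2.06 with adjusted p = 0.223 without MUT 1), and passed without WT 3 (adjusted p = 0.0444) or HET 4 (adjusted p = 0.0496). In the authors' deposited table Sox17 has an adjusted p of 1.13e-05. Gata6 was at 294, 559.5 and 371 FPKM in MUT 1, 2 and 3 and 227 to 851 (median 577) in the controls (log2 −0.50, SE 0.36, adjusted p = 0.494, and −0.29 with adjusted p = 0.772 without MUT 1). Of 25 trophectoderm genes 0 were called with or without MUT 1 (median log2 −0.17, −0.29 without MUT 1, 2 at an unadjusted p under 0.05). Among all 12751 genes 3.46% were called, 1.73% without MUT 1, and 2397 had an unadjusted p under 0.05. So short a list could hold 0 calls at these shares. The authors' deposited table calls 2 of the 25 lower, and 9.71% of its genes in either direction. Cdx2 was at 127, 132 and 114 FPKM in MUT 1, 2 and 3 and 98.2 to 209 (median 147) in the controls (log2 −0.17, SE 0.21, adjusted p = 0.69, and −0.19 with adjusted p = 0.739 without MUT 1). Gata3 was at 1404, 964 and 595 FPKM in MUT 1, 2 and 3 and 443 to 1061 (median 623) in the controls (log2 0.44, SE 0.28, adjusted p = 0.437, and 0.14 with adjusted p = 0.854 without MUT 1).

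**Figure D4:**
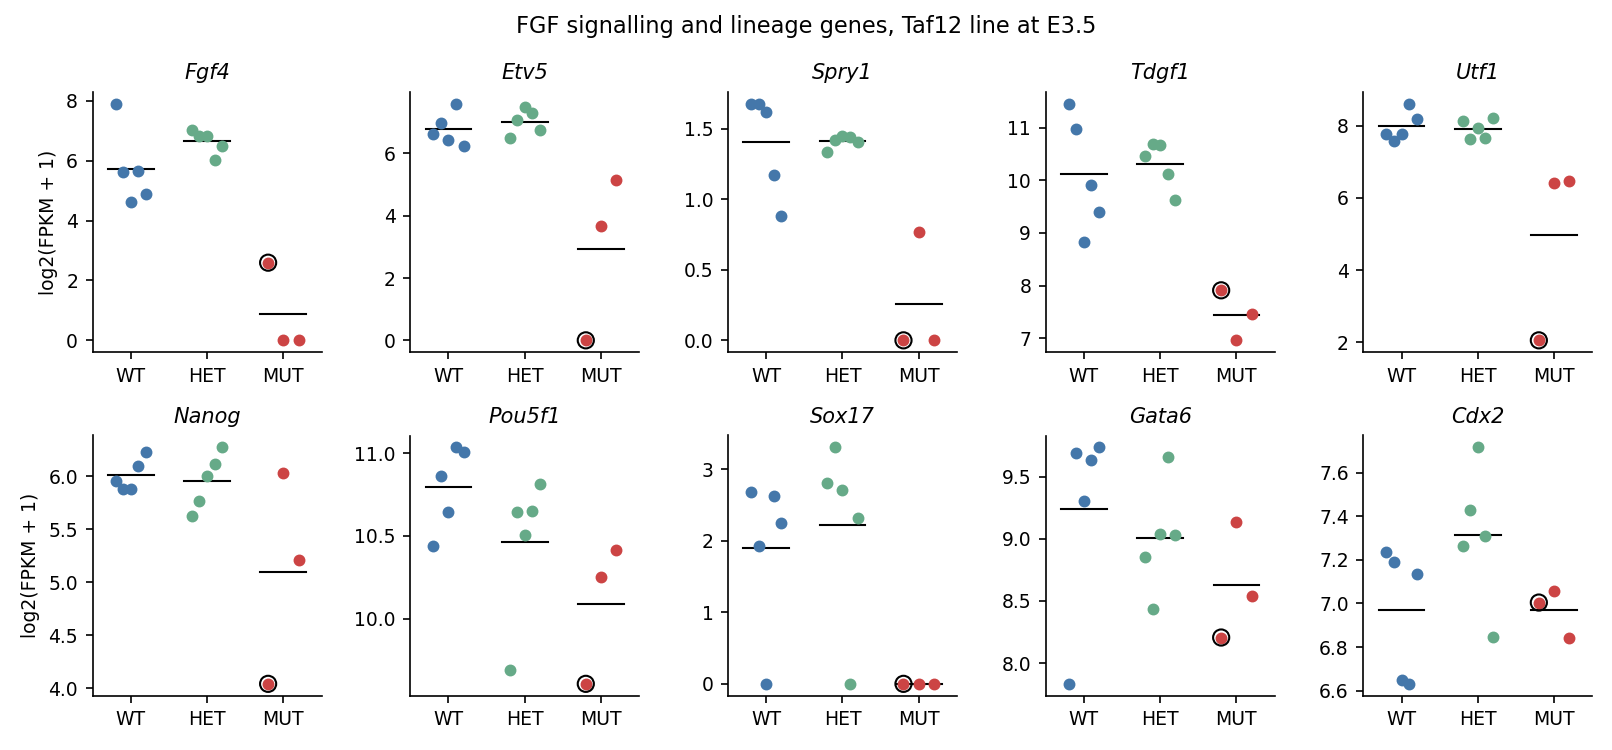
log2(FPKM + 1) of FGF pathway genes and of epiblast, primitive endoderm and trophectoderm genes in each Taf12 E3.5 library. Each point is 1 embryo, bars are group means and the ringed point is MUT 1. The MUT points of Fgf4, Etv5, Spry1, Tdgf1 and Utf1 lie under every control, those of Sox17 at 0 beside 2 controls at 0, and those of Nanog, Pou5f1, Gata6 and Cdx2 overlap the controls.

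Genes of the trophectoderm's transport function changed in both directions. Of 11 tested genes for blastocoel pumps and channels 2 rose and 1 fell, 27.3% against 3.46%, and with MUT 1 left out 3 were called higher and 1 lower. The 3 called higher include a gene that was not called with all libraries. Car4, a membrane carbonic anhydrase, rose 7.31-fold with 25.9, 38.5 and 61.5 FPKM in MUT 1, 2 and 3 and 1.96 to 11.2 (median 5.35) in the controls (log2 2.68, SE 0.38, adjusted p = 0.00297, and 2.98 with adjusted p = 0.00719 without MUT 1). The sodium pump subunit Atp1b1 fell 1.84-fold with 48.5, 41.6 and 37.3 FPKM in MUT 1, 2 and 3 and 62.7 to 91.1 (median 78.5) in the controls (log2 −0.86, SE 0.16, adjusted p = 0.0121, and −0.96 with adjusted p = 0.0219 without MUT 1). Its homologue Atp1b3 rose 1.55-fold (log2 0.63, SE 0.13, adjusted p = 0.0244, and 0.74 with adjusted p = 0.0308 without MUT 1). In the 3 genes the groups did not overlap, and the Atp1b3 call was lost without MUT 2 (adjusted p = 0.0742) or MUT 3 (adjusted p = 0.0785). Plat, which encodes tissue plasminogen activator, rose 6.29-fold and was the 1 called gene among 9 tested of trophoblast giant cells and invasion, 11.1% against 1.25% called higher, and with MUT 1 left out 1 was called higher and 0 lower. It was at 9574, 3285 and 2368 FPKM in MUT 1, 2 and 3, with MUT 1 highest, and at 423 to 1294 (median 714) in the controls (log2 2.48, SE 0.41, adjusted p = 0.00687, and 1.88 with adjusted p = 0.0307 without MUT 1). Of 20 Hippo pathway genes Ccn2, a target of YAP, rose 8.73-fold (log2 3.05, SE 0.75, adjusted p = 0.0431, and 3.48 with adjusted p = 0.0725 without MUT 1). It is 5% of the list, against 1.25% called higher, and the authors' deposited table does not call it (adjusted p of 0.293). The Ccn2 call was lost without 7 of the 10 controls in turn (adjusted p up to 0.0668), MUT 1, MUT 2 (adjusted p = 0.126) or MUT 3 (adjusted p = 0.109), and with MUT 1 left out 1 other gene of the list was called higher.

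Nsdhl and Fdps of cholesterol synthesis fell. Of 25 tested genes of that list 3 fell and 0 rose, 12% against 2.21%, and 21 differences were negative (median log2 −0.67, −0.49 without MUT 1). Of the 25, with MUT 1 left out 0 were called higher and 2 lower, Nsdhl and Srebf2, the latter not called with all libraries. Nsdhl, a sterol dehydrogenase, fell 4.49-fold with 1.42, 2.02 and 1.1 FPKM in MUT 1, 2 and 3 and 3.31 to 9.49 (median 6.97) in the controls (log2 −1.61, SE 0.29, adjusted p = 0.0104, and −1.59 with adjusted p = 0.038 without MUT 1). Fdps, of farnesyl diphosphate synthesis, fell 2.86-fold (log2 −1.43, SE 0.35, adjusted p = 0.0429, and −1.05 with adjusted p = 0.183 without MUT 1). The Fdps call was lost without 8 of the 10 controls in turn (adjusted p up to 0.0663), MUT 1, MUT 2 (adjusted p = 0.0538) or MUT 3 (adjusted p = 0.0673). Srebf2, the transcription factor that drives these genes, was at 0, 98.7 and 34.5 FPKM in MUT 1, 2 and 3 and 129.8 to 224 (median 173) in the controls (log2 −3.44, SE 0.90, adjusted p = 0.0522, and −1.48 with adjusted p = 0.0361 without MUT 1). It passed without MUT 1, and also without MUT 2 (adjusted p = 0.00961), and every mutant lay under every control. Among 22 genes of fatty acid and lipid synthesis 1 rose and 2 fell, 13.6% against 3.46%, and with MUT 1 left out 1 was called higher and 0 lower. Agpat2, an acyltransferase of phospholipid synthesis, rose 2.23-fold with 91.7, 112 and 112 FPKM in MUT 1, 2 and 3 and 32.3 to 59.8 (median 47.9) in the controls (log2 1.16, SE 0.20, adjusted p = 0.00893, and 1.25 with adjusted p = 0.0189 without MUT 1). Scd1, the stearoyl-CoA desaturase, fell 3.07-fold (log2 −1.84, SE 0.35, adjusted p = 0.015, and −1.23 with adjusted p = 0.0519 without MUT 1). The Scd1 call was lost without MUT 1. Plin2, a coat protein of lipid droplets, fell 2.04-fold (log2 −1.11, SE 0.26, adjusted p = 0.0385, and −0.93 with adjusted p = 0.153 without MUT 1). The Plin2 call was lost without 6 of the 10 controls in turn (adjusted p up to 0.0607), MUT 1 or MUT 3 (adjusted p = 0.135).

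Several cytosolic ribosomal protein genes fell. Each of the 76 was tested, 8 fell and 0 rose, 10.5% against 2.21%, and 67 differences were negative (median log2 −0.25, −0.23 without MUT 1). Of the 76, with MUT 1 left out 0 were called higher and 4 lower. Rps23 fell 1.68-fold with 305, 266 and 373 FPKM in MUT 1, 2 and 3 and 459 to 588 (median 546) in the controls (log2 −0.76, SE 0.12, adjusted p = 0.0064, and −0.74 with adjusted p = 0.0247 without MUT 1). Rps9 fell 1.55-fold (log2 −0.62, SE 0.11, adjusted p = 0.0118, and −0.60 with adjusted p = 0.0468 without MUT 1), and Rpl3 1.46-fold (log2 −0.57, SE 0.11, adjusted p = 0.0128, and −0.39 with adjusted p = 0.0382 without MUT 1). Rpl23a fell 1.67-fold (log2 −0.74, SE 0.15, adjusted p = 0.0197, and −0.69 with adjusted p = 0.0672 without MUT 1). The Rpl23a call was lost without MUT 1 or MUT 2 (adjusted p = 0.0683). Their summed level was 39099.5 to 46549 reads per M in MUT and 41765 to 56666 in the controls. Ribosomal protein genes have many processed copies, so reads may be split among them. Of 40 ribosome biogenesis genes Wdr12, needed for the large subunit, fell 1.78-fold (log2 −0.83, SE 0.21, adjusted p = 0.0456, and −0.67 with adjusted p = 0.182 without MUT 1). The Wdr12 call was lost without 9 of the 10 controls in turn (adjusted p up to 0.0686), MUT 1 or MUT 2 (adjusted p = 0.121). The median of that list was near 0 (median log2 −0.01, 0.12 without MUT 1), its called share was 2.5%, and with MUT 1 left out 0 were called.

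Of 36 tested replication genes 1 rose and 3 fell, 11.1% against 3.46%, and with MUT 1 left out 1 was called higher and 1 lower. Prim1, the catalytic subunit of primase, fell 2.16-fold with 236, 191 and 277 FPKM in MUT 1, 2 and 3 and 407 to 621 (median 485) in the controls (log2 −1.11, SE 0.15, adjusted p = 0.0024, and −1.12 with adjusted p = 0.0121 without MUT 1). Rfc2, of the clamp loader, rose 1.79-fold with 1367, 1112 and 1200.3 FPKM in MUT 1, 2 and 3 and 519.7 to 841 (median 656) in the controls (log2 0.85, SE 0.15, adjusted p = 0.0103, and 0.77 with adjusted p = 0.0479 without MUT 1). In both genes the groups did not overlap. Mcm3, of the replicative helicase, fell 2.53-fold (log2 −1.39, SE 0.29, adjusted p = 0.0219, and −0.94 with adjusted p = 0.0806 without MUT 1). The Mcm3 call was lost without MUT 1. Mcm10 fell 1.74-fold (log2 −0.76, SE 0.19, adjusted p = 0.0423, and −0.68 with adjusted p = 0.149 without MUT 1). The Mcm10 call was lost without 8 of the 10 controls in turn (adjusted p up to 0.0638), MUT 1, MUT 2 (adjusted p = 0.077) or MUT 3 (adjusted p = 0.0785). Of 30 mitosis genes 2 rose and 0 fell, 6.67% against 1.25% called higher, and with MUT 1 left out 1 was called higher and 0 lower. Birc5, the survivin of the chromosomal passenger complex, rose 1.4-fold (log2 0.48, SE 0.11, adjusted p = 0.0308, and 0.55 with adjusted p = 0.0393 without MUT 1). The Birc5 call was lost without WT 5 (adjusted p = 0.05), MUT 2 (adjusted p = 0.0583) or MUT 3 (adjusted p = 0.112). Kif20a, a cytokinesis kinesin, rose 1.55-fold (log2 0.64, SE 0.16, adjusted p = 0.0477, and 0.63 with adjusted p = 0.139 without MUT 1). The Kif20a call was lost without 8 of the 10 controls in turn (adjusted p up to 0.0758), MUT 1 or MUT 2 (adjusted p = 0.158). Of 24 G1 regulators 1 was called, 4.17% against 3.46%, and with MUT 1 left out 0 were called. Myc fell 5.02-fold with 14.8, 29.3 and 88.5 FPKM in MUT 1, 2 and 3 and 72.8 to 459 (median 206) in the controls (log2 −2.51, SE 0.52, adjusted p = 0.0219, and −1.94 with adjusted p = 0.103 without MUT 1). MUT 3 overlapped the controls and the call was lost without MUT 1 or MUT 2 (adjusted p = 0.0652). Of 23 p53 targets 0 were called with or without MUT 1, with 4 at an unadjusted p under 0.05 (median log2 −0.05, 0.24 without MUT 1). Among all 12751 genes 3.46% were called and 2397 had an unadjusted p under 0.05. Of 19 apoptosis regulators Birc5, also counted under mitosis, was called in both fits, and no other was, 5.26% against 3.46%.

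Some metabolic and defence genes had no reads in the mutants. Pck2, which makes phosphoenolpyruvate in mitochondria, had 0 reads in each mutant and stood at 12.6 to 271 FPKM (median 113) in the controls, at least 33-fold lower (log2 −6.57, SE 0.63, adjusted p = 0.000306, and −6.57 with adjusted p = 0.00267 without MUT 1). It was the 1 called gene of 21 in the integrated stress response and amino acid list (median log2 −0.35, −0.27 without MUT 1), 4.76% against 3.46%, and with MUT 1 left out 0 were called higher and 2 lower. Oas1f, of the oligoadenylate synthetase family, had 0 reads in each mutant and stood at 14.3 to 155 FPKM (median 62.3) in the controls, at least 22.5-fold lower (log2 −5.89, SE 0.48, adjusted p = 5.43e-05, and −5.89 with adjusted p = 0.0011 without MUT 1). Stat2, of interferon signalling, also had 0 reads in each mutant and stood at 0 to 136 FPKM (median 40.4) in the controls, at least 14.3-fold lower (log2 −5.00, SE 1.12, adjusted p = 0.0308, and −5.00 with adjusted p = 0.0921 without MUT 1). The Stat2 call was lost without WT 2 (adjusted p = 0.0505), MUT 1, MUT 2 (adjusted p = 0.0722) or MUT 3 (adjusted p = 0.0775). Both belong to 12 tested interferon and innate sensing genes, of which no other was called, 16.7% against 3.46%, and with MUT 1 left out 0 were called higher and 1 lower. Of 24 heat shock and chaperone genes 2 fell, 8.33% against 2.21%, and with MUT 1 left out 1 was called higher and 1 lower, neither of them these 2. The mitochondrial chaperonin Hspd1 fell 1.54-fold (log2 −0.61, SE 0.13, adjusted p = 0.0213, and −0.60 with adjusted p = 0.0588 without MUT 1). Cct4 of the cytosolic chaperonin fell 1.46-fold (log2 −0.56, SE 0.13, adjusted p = 0.0396, and −0.40 with adjusted p = 0.165 without MUT 1). Hspd1 was lost without MUT 1 or MUT 2 (adjusted p = 0.0633). Cct4 was lost without 8 of the 10 controls in turn (adjusted p up to 0.0624), MUT 1 or MUT 3 (adjusted p = 0.0698). Of 21 glycolysis genes 1 was called, 4.76% against 3.46%, and with MUT 1 left out 0 were called. Eno1, the enolase, fell 1.62-fold (log2 −0.68, SE 0.16, adjusted p = 0.0389, and −0.72 with adjusted p = 0.0835 without MUT 1). The Eno1 call was lost without 8 of the 10 controls in turn (adjusted p up to 0.0608), MUT 1, MUT 2 (adjusted p = 0.114) or MUT 3 (adjusted p = 0.0793). Of 31 nuclear genes of oxidative phosphorylation 1 rose and 2 fell, 9.68% against 3.46%, and with MUT 1 left out 0 were called. Uqcrq of complex III rose 1.55-fold (log2 0.62, SE 0.15, adjusted p = 0.0382, and 0.43 with adjusted p = 0.167 without MUT 1). Sdha of complex II fell 1.8-fold (log2 −0.92, SE 0.23, adjusted p = 0.0436, and −0.86 with adjusted p = 0.145 without MUT 1). Uqcrq was lost without 7 of the 10 controls in turn (adjusted p up to 0.0591), MUT 1 or MUT 3 (adjusted p = 0.0785). Sdha was lost without 10 of the 10 controls in turn (adjusted p up to 0.0653), MUT 1 or MUT 3 (adjusted p = 0.162). Of 10 tested mitochondrially encoded genes 0 were called with or without MUT 1, with 0 at an unadjusted p under 0.05 (median log2 0.37, 0.20 without MUT 1). Among all 12751 genes 3.46% were called and 2397 had an unadjusted p under 0.05.

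In the DNA methylation and imprinting list 1 of 20 tested rose and 2 fell, 15% against 3.46%, and with MUT 1 left out 0 were called. Tet1, which oxidises methylcytosine, fell 2.69-fold with 6.9, 27.9 and 12.8 FPKM in MUT 1, 2 and 3 and 26.2 to 58.1 (median 46.1) in the controls (log2 −1.54, SE 0.33, adjusted p = 0.0268, and −1.09 with adjusted p = 0.11 without MUT 1). The call was lost without MUT 1 or MUT 3 (adjusted p = 0.072). Zfp57, which keeps imprints methylated, fell 5.05-fold with 0, 25.8 and 46.2 FPKM in MUT 1, 2 and 3 and 38.1 to 149.5 (median 127) in the controls (log2 −3.42, SE 0.82, adjusted p = 0.0404, and −1.71 with adjusted p = 0.0586 without MUT 1). The Zfp57 call was lost without 9 of the 10 controls in turn (adjusted p up to 0.0619) or MUT 1. Meg3, an imprinted RNA, rose 3.33-fold (log2 1.61, SE 0.39, adjusted p = 0.0421, and 1.48 with adjusted p = 0.147 without MUT 1). The Meg3 call was lost without 9 of the 10 controls in turn (adjusted p up to 0.0638), MUT 1, MUT 2 (adjusted p = 0.105) or MUT 3 (adjusted p = 0.0641). Of 10 tested oocyte and maternal effect genes Nlrp14 rose, 10% against 3.46%, and with MUT 1 left out 1 was called higher and 0 lower. Of 5 genes of genome activation at the cleavage stage 0 were called with or without MUT 1, with 1 at an unadjusted p under 0.05. Among all 12751 genes 3.46% were called and 2397 had an unadjusted p under 0.05. Of 21 genes of morula and cleavage stages 1 rose and 3 fell, 19% against 3.46%, and with MUT 1 left out 0 were called higher and 2 lower. Fbxo15 rose 1.63-fold (log2 0.73, SE 0.16, adjusted p = 0.0287, and 0.72 with adjusted p = 0.086 without MUT 1), lost without MUT 1 or MUT 2 (adjusted p = 0.0791). Upp1, a uridine phosphorylase, fell 3.42-fold (log2 −1.98, SE 0.47, adjusted p = 0.0387, and −1.37 with adjusted p = 0.174 without MUT 1). The Upp1 call was lost without 8 of the 10 controls in turn (adjusted p up to 0.0607), MUT 1 or MUT 3 (adjusted p = 0.1). The other two, Tdgf1 and Oas1f, are given above.

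Beyond these lists, the genes named next had the largest differences in either direction among those called in both fits whose groups did not overlap. Thumpd2, a THUMP-domain gene, had 2 reads in the mutants, both in MUT 2, and 1169 in the controls, 159.7-fold lower in reads per library (95% counting interval 44.1 to 1319.8) (log2 −6.41, SE 0.43, adjusted p = 9.45e-06, and −6.10 with adjusted p = 0.000238 without MUT 1). Usp3, a histone deubiquitinase, fell 95-fold with 0, 1.66 and 3.91 FPKM in MUT 1, 2 and 3 and 26.9 to 388 (median 128) in the controls (log2 −5.89, SE 0.68, adjusted p = 0.00086, and −5.28 with adjusted p = 0.00704 without MUT 1). Nav3 had 0 reads in each mutant and stood at 10.6 to 120.2 FPKM (median 46.4) in the controls, at least 22.2-fold lower (log2 −5.60, SE 0.61, adjusted p = 0.000621, and −5.60 with adjusted p = 0.00409 without MUT 1). Rbfaos, annotated on the strand opposite to Rbfa, had 0 reads as well, at least 25.5-fold lower (log2 −5.58, SE 0.72, adjusted p = 0.00196, and −5.58 with adjusted p = 0.00975 without MUT 1). Without a known strand setting its reads cannot be told apart from those of its partner. Syne1, of the nuclear envelope, fell 24.6-fold (log2 −4.97, SE 0.73, adjusted p = 0.00345, and −4.38 with adjusted p = 0.0219 without MUT 1). Cstf2t, an RNA 3′ end factor, fell 15-fold (log2 −4.82, SE 0.86, adjusted p = 0.0104, and −5.45 with adjusted p = 0.0189 without MUT 1). The rises were smaller than these falls. Nlrp14, known from oocytes, was at 11, 7.83 and 17.8 FPKM in MUT 1, 2 and 3 and 0 to 4.89 (median 0) in the controls (log2 3.11, SE 0.54, adjusted p = 0.0102, and 3.14 with adjusted p = 0.0361 without MUT 1). Tmprss12, a transmembrane protease, was at 11, 5.13 and 15.7 FPKM in MUT 1, 2 and 3 and 0 to 2.63 (median 0.0399) in the controls (log2 2.90, SE 0.47, adjusted p = 0.00683, and 2.82 with adjusted p = 0.0307 without MUT 1). Bean1 was at 13.4, 7.46 and 5.59 FPKM in MUT 1, 2 and 3 and 0 to 2.6 (median 0) in the controls (log2 2.87, SE 0.47, adjusted p = 0.00671, and 2.55 with adjusted p = 0.0361 without MUT 1), and was tested only because of the mutants. The authors' deposited table does not call these 3, with adjusted p of 0.171, 0.0855 and 0.247. Other rises named in this report that it does not call are H2bc21, Ccn2 and Itga7. Fbxo2, an adaptor of a ubiquitin ligase, rose 5.53-fold (log2 2.27, SE 0.36, adjusted p = 0.0056, and 2.11 with adjusted p = 0.0294 without MUT 1). Pigv of GPI anchor synthesis rose 3.58-fold (log2 1.75, SE 0.27, adjusted p = 0.00444, and 1.91 with adjusted p = 0.0107 without MUT 1), and Mrnip rose 3.27-fold (log2 1.69, SE 0.26, adjusted p = 0.00537, and 1.67 with adjusted p = 0.0221 without MUT 1).

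Other genes, named for the smallest p-values in either direction among those called in both fits, had folds of 1.64 to 15.1. A choice by p-value favours genes with little spread within the groups. Mdh2, the mitochondrial malate dehydrogenase, rose 1.64-fold with 12993, 11789 and 13154 FPKM in MUT 1, 2 and 3 and 7140.2 to 8290.1 (median 7703) in the controls (log2 0.71, SE 0.07, adjusted p = 0.000595, and 0.69 with adjusted p = 0.00301 without MUT 1). Ftl1, the ferritin light chain, rose 2.29-fold with 1109, 1039 and 1642 FPKM in MUT 1, 2 and 3 and 486 to 611 (median 559) in the controls (log2 1.16, SE 0.13, adjusted p = 0.00086, and 1.24 with adjusted p = 0.00301 without MUT 1). The 3 mutants lay well above each control in both genes. Mfge8, a secreted protein that marks dying cells for uptake, rose 2.31-fold (log2 1.22, SE 0.16, adjusted p = 0.00207, and 1.17 with adjusted p = 0.0122 without MUT 1). Atraid rose 2.82-fold (log2 1.50, SE 0.20, adjusted p = 0.0024, and 1.34 with adjusted p = 0.0155 without MUT 1). Sri, the calcium-binding protein sorcin, fell 6.19-fold with 5.78, 7.45 and 5.37 FPKM in MUT 1, 2 and 3 and 26.9 to 54.3 (median 34.5) in the controls (log2 −2.41, SE 0.26, adjusted p = 0.000595, and −2.38 with adjusted p = 0.00349 without MUT 1). Glrx, glutaredoxin, fell 2.89-fold with 165, 138 and 167 FPKM in MUT 1, 2 and 3 and 365 to 609 (median 449) in the controls (log2 −1.51, SE 0.16, adjusted p = 0.000599, and −1.55 with adjusted p = 0.00301 without MUT 1). Again no mutant reached a control. Lpcat3, a phospholipid acyltransferase, fell 2.8-fold (log2 −1.46, SE 0.17, adjusted p = 0.00086, and −1.41 with adjusted p = 0.00625 without MUT 1). Gsdme, a pore-forming gasdermin, fell 15.1-fold (log2 −2.20, SE 0.28, adjusted p = 0.00195, and −2.31 with adjusted p = 0.00657 without MUT 1).

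As given above, 290 genes were called with all libraries but not without MUT 1, and 70 the other way. Named from the 290 were 4 rises. Itga7, an integrin, was at 26.2, 14.6 and 21.3 FPKM in MUT 1, 2 and 3 and 0 to 10.8 (median 0.996) in the controls (log2 3.19, SE 0.77, adjusted p = 0.0405, and 3.01 with adjusted p = 0.132 without MUT 1). Zfp839 was at 28.2, 24.8 and 15.4 FPKM in MUT 1, 2 and 3 and 0.29 to 8.93 (median 5.78) in the controls (log2 2.17, SE 0.55, adjusted p = 0.0486, and 2.00 with adjusted p = 0.165 without MUT 1). Znrf1, a ubiquitin ligase, was at 26, 20.1 and 21.4 FPKM in MUT 1, 2 and 3 and 1.37 to 11.7 (median 3.55) in the controls (log2 2.11, SE 0.54, adjusted p = 0.0495, and 2.01 with adjusted p = 0.156 without MUT 1). Ccn2, described above, was another. In each of the 4 the mutants lay above every control. Itga7 was also lost without 7 of the 10 controls in turn (adjusted p up to 0.0607), MUT 1, MUT 2 (adjusted p = 0.072) or MUT 3 (adjusted p = 0.0943). The authors' deposited table does not call Itga7 (adjusted p of 0.249). Zfp839 was lost without 9 of the 10 controls in turn (adjusted p up to 0.0711), MUT 1, MUT 2 (adjusted p = 0.121) or MUT 3 (adjusted p = 0.0784). Znrf1 was lost without 8 of the 10 controls in turn (adjusted p up to 0.0733), MUT 1, MUT 2 (adjusted p = 0.101) or MUT 3 (adjusted p = 0.106). The falls named from this set were Hpgds (log2 −4.19, SE 1.05, adjusted p = 0.0451, and −4.19 with adjusted p = 0.124 without MUT 1) and Zfp948 (log2 −4.19, SE 0.81, adjusted p = 0.0152, and −4.19 with adjusted p = 0.0536 without MUT 1). They were also Tarm1 (log2 −4.08, SE 0.86, adjusted p = 0.0236, and −4.08 with adjusted p = 0.0734 without MUT 1) and Galnt7 (log2 −3.99, SE 0.83, adjusted p = 0.0221, and −3.99 with adjusted p = 0.0691 without MUT 1). Each had 0 reads in every mutant and was at least 7.92-fold, 23.6-fold, 11.5-fold and 26.6-fold lower. Hpgds was also lost without 8 of the 10 controls in turn (adjusted p up to 0.0713), MUT 1, MUT 2 (adjusted p = 0.102) or MUT 3 (adjusted p = 0.101). Zfp948 was lost without MUT 1. Tarm1 was lost without MUT 1, MUT 2 (adjusted p = 0.0588) or MUT 3 (adjusted p = 0.0608). Galnt7 was lost without MUT 1, MUT 2 (adjusted p = 0.0569) or MUT 3 (adjusted p = 0.0575).

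Other genes were called without MUT 1 but not with all libraries, 4 of them named in either direction. Slc2a12, a sugar transporter, was at 97.4, 0.945 and 0 FPKM in MUT 1, 2 and 3 and 11.6 to 253 (median 121) in the controls (log2 −4.12, SE 1.13, adjusted p = 0.0656, and −6.17 with adjusted p = 0.00497 without MUT 1). Prom1, prominin, was at 54.7, 0 and 0 FPKM in MUT 1, 2 and 3 and 12.7 to 77.2 (median 30.9) in the controls (log2 −2.96, SE 0.97, adjusted p = 0.118, and −4.89 with adjusted p = 0.00267 without MUT 1). Rnf17, known from germ cells, was at 341, 3.1 and 35.4 FPKM in MUT 1, 2 and 3 and 116 to 462 (median 370.1) in the controls (log2 −3.01, SE 0.90, adjusted p = 0.0862, and −4.61 with adjusted p = 0.00727 without MUT 1). Slc20a2, a phosphate transporter, was at 260.0, 0 and 39.7 FPKM in MUT 1, 2 and 3 and 60.8 to 264 (median 154) in the controls (log2 −2.56, SE 1.13, adjusted p = 0.238, and −4.35 with adjusted p = 0.0479 without MUT 1). In these 4 genes MUT 1 lay within the range of the controls. Nlrc3 was at 0, 19.6 and 13.1 FPKM in MUT 1, 2 and 3 (log2 2.04, SE 0.88, adjusted p = 0.227, and 3.41 with adjusted p = 0.04996 without MUT 1). Slc17a7, a glutamate transporter, was at 0, 14.3 and 4.89 FPKM in MUT 1, 2 and 3 (log2 1.86, SE 0.59, adjusted p = 0.107, and 2.94 with adjusted p = 0.00727 without MUT 1). Btnl1 was at 0, 5.9 and 16 FPKM in MUT 1, 2 and 3 (log2 1.74, SE 0.71, adjusted p = 0.207, and 2.88 with adjusted p = 0.0383 without MUT 1). MUT 1 had 0 reads of each of the 3. Slc17a7 and Btnl1 were tested only because of the mutants. Nqo1, the quinone reductase of the oxidative stress response, was at 27.4, 86.6 and 91 FPKM in MUT 1, 2 and 3 and 4.93 to 36 (median 18) in the controls (log2 1.88, SE 0.50, adjusted p = 0.0573, and 2.43 with adjusted p = 0.0393 without MUT 1). Nqo1 also passed without WT 2 (adjusted p = 0.0498), and Slc2a12 without HET 5 (adjusted p = 0.0456).

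Whether the changes were larger in Taf12 MUT than in mutants of other TFIID subunits at E3.5 was tested as a difference of effects, each against its own controls. The lines were normalized separately, so levels are not set across them. Against Taf13 MUT (n = 3, with 8 controls) 32 genes (0.251%) differed, 20 with the higher effect in Taf12 MUT and 12 with the lower. Against Taf5 MUT (n = 4, with 3 WT controls) 5 (0.0392%) differed, 2 with the higher effect and 3 with the lower. Without MUT 1 the counts were 20 and 17. In Taf13 MUT Taf13 was at 24.4 ± 10 against 32.1 ± 8.38 FPKM, so its effect differed from that in Taf12 MUT (difference 2.07, SE 0.36, adjusted p = 0.023, and 1.95 with adjusted p = 0.0312 without MUT 1). Taf5 had 0 reads in Taf5 MUT against 35.7 ± 20.1 in WT (difference 7.16, SE 0.81, adjusted p = 1.8e-05, and 7.13 with adjusted p = 0.000172 without MUT 1). Fgf4 and Etv5 of the FGF pathway differed from the Taf13 line, while Fgf10 (adjusted p = 0.247) and Spry1 (adjusted p = 0.771) did not pass. Fgf4 stood at 73.3 ± 37.7 against 111 ± 68.1 FPKM in Taf13 MUT (difference −5.05, SE 1.04, adjusted p = 0.0326, and −5.91 with adjusted p = 0.024 without MUT 1). Etv5 stood there at 178 ± 51.7 against 169 ± 43.4 (difference −4.02, SE 0.77, adjusted p = 0.023, and −2.54 with adjusted p = 0.024 without MUT 1). Against Taf5 MUT they did not pass (adjusted p = 0.267 and 0.0572). Tdgf1 stood at 1331 ± 258 against 1176 ± 421 in Taf5 MUT, unlike its fall in Taf12 MUT (difference −2.99, SE 0.53, adjusted p = 0.0164, and −3.22 with adjusted p = 0.00966 without MUT 1). Against Taf13 MUT its difference missed the threshold (adjusted p = 0.0729). Ezr, encoding ezrin, which ties actin to the membrane, was at 0, 13.2 and 0 FPKM in MUT 1, 2 and 3 and 33.2 to 90.6 (median 61.1) in the controls in the Taf12 line (log2 −4.66, SE 0.61, adjusted p = 0.00196, and −4.02 with adjusted p = 0.0121 without MUT 1). Its fall was larger than in Taf13 MUT (difference −3.72, SE 0.68, adjusted p = 0.023, and −3.08 with adjusted p = 0.0668 without MUT 1). It was also larger than in Taf5 MUT (difference −4.31, SE 0.73, adjusted p = 0.0106, and −3.67 with adjusted p = 0.0273 without MUT 1). H1f2 was at 0.902 ± 1.04 against 1.16 ± 0.832 FPKM in Taf13 MUT (difference 3.35, SE 0.63, adjusted p = 0.023, and 3.43 with adjusted p = 0.0312 without MUT 1). Coil, encoding coilin of Cajal bodies, rose 1.81-fold in Taf12 MUT (log2 0.83, SE 0.17, adjusted p = 0.0219, and 0.68 with adjusted p = 0.0969 without MUT 1). The Coil call was lost without MUT 1 or MUT 2 (adjusted p = 0.0733). Its effect differed from Taf13 MUT (difference 1.09, SE 0.20, adjusted p = 0.023, and 0.94 with adjusted p = 0.0711 without MUT 1). Cnn1, a calponin, was at 7.64, 7.21 and 4.12 FPKM in MUT 1, 2 and 3 and in the controls only in HET 1, at 5 FPKM (log2 2.58, SE 0.49, adjusted p = 0.014, and 2.44 with adjusted p = 0.0588 without MUT 1). It differed from Taf13 MUT (difference 2.58, SE 0.49, adjusted p = 0.023, and 2.44 with adjusted p = 0.0594 without MUT 1), where it was listed at 0 in every library, and its call was lost without MUT 1. Cnn1 was tested only because of the mutants, so neither its call nor this difference is support for a change. Tbrg1, a growth regulator, fell 2.18-fold in Taf12 MUT (log2 −1.10, SE 0.15, adjusted p = 0.0024, and −1.02 with adjusted p = 0.0129 without MUT 1). It differed from Taf13 MUT (difference −0.95, SE 0.16, adjusted p = 0.023, and −0.87 with adjusted p = 0.0312 without MUT 1). So did Ftl1 (difference 0.95, SE 0.20, adjusted p = 0.0326, and 1.02 with adjusted p = 0.0419 without MUT 1). Dynlt3, a dynein light chain, fell 4.57-fold (log2 −1.89, SE 0.32, adjusted p = 0.00896, and −1.73 with adjusted p = 0.0383 without MUT 1). It differed from Taf5 MUT (difference −2.73, SE 0.44, adjusted p = 0.00767, and −2.57 with adjusted p = 0.0149 without MUT 1). Left out 1 at a time, single libraries of the 31 decided some of these differences. Against Taf13 MUT the call was lost for Etv5 without Taf13 MUT 1 or Taf13 MUT 2 (adjusted p up to 0.0692) and for Fgf4 without MUT 2, MUT 3, Taf13 MUT 1, Taf13 MUT 2 or Taf13 MUT 3 (adjusted p up to 0.0981). It was also lost for Ezr without MUT 1 or Taf13 MUT 2 (adjusted p up to 0.0668) and for H1f2 without Taf13 MUT 3 (adjusted p up to 0.0602). A further loss was Ftl1 without MUT 3, Taf13 HET 2, Taf13 HET 4, Taf13 MUT 1 or Taf13 MUT 2 (adjusted p up to 0.112). Coil and Cnn1 lost it without MUT 1 alone. Against Taf5 MUT Tdgf1 without Taf5 WT 3 (adjusted p up to 0.0826) and Ezr without Taf5 WT 3 (adjusted p up to 0.0723) lost it. Rises of Car4, Plat, H2bc4 and Mfge8 did not differ from either line at the threshold, with the smallest adjusted p at 0.139 for H2bc4 against Taf13 MUT. A missed threshold does not show that the lines act alike.

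Outgrowths of the Taf12 line (4 MUT against 4 WT and 3 HET) gave the same comparison after 72 h in culture. The effects at E3.5 and in outgrowths differed for 2026 genes (15.9%), 932 with the higher effect at E3.5 and 1094 with the lower. Of the 109 genes named here 50 differed. They were chosen mostly on their E3.5 values and some on this difference, so their share cannot be set against the 15.9%. Taf12 was at 52.9 ± 0.82 against 22.3 ± 3.95 FPKM in outgrowths, a larger excess than at E3.5 (difference −0.70, SE 0.21, adjusted p = 0.0259, and −0.76 with adjusted p = 0.0267 without MUT 1). Taf13 was at 120.4 ± 18 against 26.7 ± 4.05 (difference −0.50, SE 0.25, adjusted p = 0.189, and −0.62 with adjusted p = 0.123 without MUT 1). H2bc4 was at 921 ± 126 against 71.4 ± 16.4 (difference −0.52, SE 0.52, adjusted p = 0.545, and −0.39 with adjusted p = 0.7 without MUT 1). H1f2 was at 176 ± 51.9 against 12.2 ± 5.09 (difference −0.65, SE 0.50, adjusted p = 0.411, and −0.56 with adjusted p = 0.531 without MUT 1). Tada3 went the other way in outgrowths, at 52.6 ± 5.81 against 33 ± 3.62 (difference −1.67, SE 0.17, adjusted p = 1.03e-06, and −1.67 with adjusted p = 6.13e-06 without MUT 1). Myc was at 5531 ± 905 against 2526 ± 561 (difference −3.66, SE 0.58, adjusted p = 0.000167, and −3.09 with adjusted p = 0.000883 without MUT 1). Cdx2 was at 16.6 ± 18.2 against 1.44 ± 1.51 (difference −2.67, SE 0.67, adjusted p = 0.00915, and −2.69 with adjusted p = 0.0182 without MUT 1). Birc5, Kif20a and Tk1, genes of mitosis and S phase, had far lower effects in outgrowths than at E3.5. Birc5 was at 173 ± 50.2 against 609 ± 31.9 (difference 2.34, SE 0.20, adjusted p = 9.18e-08, and 2.42 with adjusted p = 4.89e-07 without MUT 1). Kif20a was at 227 ± 85.6 against 718 ± 131 (difference 2.36, SE 0.28, adjusted p = 9.4e-06, and 2.34 with adjusted p = 4.63e-05 without MUT 1). Tk1, thymidine kinase, was at 72.3 ± 20.9 against 638 ± 108 (difference 2.92, SE 0.23, adjusted p = 2.76e-08, and 2.92 with adjusted p = 2.63e-07 without MUT 1), and at 676 ± 20.4 against 800.0 ± 111 FPKM at E3.5. Eno1 was at 447 ± 89.1 against 2535 ± 354 (difference 1.83, SE 0.21, adjusted p = 4.73e-06, and 1.79 with adjusted p = 2.6e-05 without MUT 1). Lsm4, a splicing factor, was at 206 ± 15.9 against 807 ± 50.5 (difference 1.49, SE 0.13, adjusted p = 7.61e-08, and 1.40 with adjusted p = 5.2e-07 without MUT 1). At E3.5 Lsm4 fell 1.39-fold (log2 −0.48, SE 0.11, adjusted p = 0.0337, and −0.56 with adjusted p = 0.0382 without MUT 1). The Lsm4 call was lost without 5 of the 10 controls in turn (adjusted p up to 0.0551), MUT 2 (adjusted p = 0.0892) or MUT 3 (adjusted p = 0.106). Ftl1 was at 6161 ± 575 against 961 ± 90.4 (difference −1.52, SE 0.16, adjusted p = 1.1e-06, and −1.44 with adjusted p = 9.69e-06 without MUT 1). Pck2, Thumpd2 and Sri were lower relative to their controls at E3.5 than in outgrowths. Pck2 was at 29.4 ± 18.9 against 251 ± 97.3 (difference −3.17, SE 0.93, adjusted p = 0.0233, and −3.17 with adjusted p = 0.0419 without MUT 1). Thumpd2 was at 67.5 ± 70.6 against 61.5 ± 25.3 (difference −5.91, SE 0.78, adjusted p = 2.54e-05, and −5.61 with adjusted p = 0.000149 without MUT 1). Sri was at 118 ± 9.97 against 138 ± 18.3 (difference −2.19, SE 0.28, adjusted p = 1.58e-05, and −2.15 with adjusted p = 6.68e-05 without MUT 1). Fgf4 was near 0 in both outgrowth groups, at 0 ± 0 against 0.41 ± 1.08 (difference −5.05, SE 0.81, adjusted p = 0.000199, and −5.91 with adjusted p = 3.65e-05 without MUT 1). Glrx was at 66.9 ± 23.8 against 164 ± 41.5 (difference −0.20, SE 0.30, adjusted p = 0.703, and −0.24 with adjusted p = 0.68 without MUT 1). Lpcat3 was at 17.1 ± 2.57 against 33.3 ± 9.23 (difference −0.57, SE 0.25, adjusted p = 0.138, and −0.52 with adjusted p = 0.223 without MUT 1). Car4 was at 71.5 ± 18.6 against 19.7 ± 12.1 (difference 0.69, SE 0.57, adjusted p = 0.451, and 0.99 with adjusted p = 0.301 without MUT 1). Plat was at 850.3 ± 672 against 149.5 ± 116 (difference −0.40, SE 1.08, adjusted p = 0.842, and −0.99 with adjusted p = 0.609 without MUT 1). These 4 did not differ from E3.5 at the threshold, nor did the differences of Mfge8 (difference 0.49, SE 0.54, adjusted p = 0.584, and 0.43 with adjusted p = 0.677 without MUT 1), Prim1 (difference −0.56, SE 0.21, adjusted p = 0.0778, and −0.57 with adjusted p = 0.105 without MUT 1) or Tdgf1 (difference −1.61, SE 1.32, adjusted p = 0.446, and −1.84 with adjusted p = 0.429 without MUT 1). With 1 library left out, the difference from outgrowths was lost for Taf12 without MUT 3 (adjusted p up to 0.0692) and for Pck2 without outgrowth MUT 2, outgrowth MUT 3 or outgrowth MUT 4 (adjusted p up to 0.0601). It passed for Prim1 without MUT 3 or outgrowth MUT 4 (adjusted p down to 0.0461) and for Tdgf1 without outgrowth WT 2 (adjusted p = 0.00288). The rise of Mdh2 was smaller, at 7988 ± 309 against 7245 ± 599.8 (difference 0.57, SE 0.10, adjusted p = 0.000301, and 0.55 with adjusted p = 0.00104 without MUT 1).

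**Figure D5:**
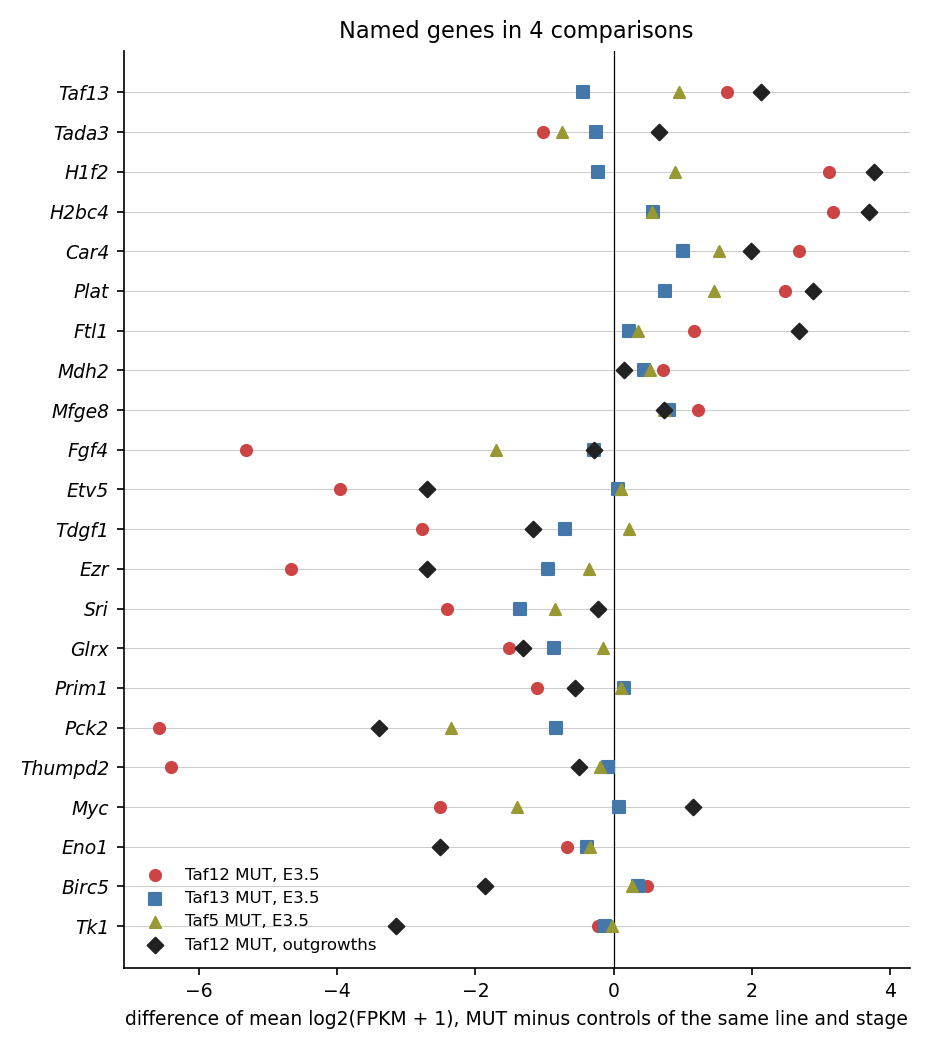
Difference of mean log2(FPKM + 1) between mutants and the controls of the same line and stage, for 22 named genes in Taf12 MUT at E3.5, Taf13 MUT at E3.5, Taf5 MUT at E3.5 and Taf12 MUT outgrowths. Each point is 1 comparison, with no error shown. Fgf4, Etv5 and Ezr are lowest in Taf12 MUT at E3.5, at −5.33, −3.95 and −4.66, and H2bc4 and H1f2 are high in Taf12 MUT at both stages.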

How the data were processed

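RNA of single mouse blastocysts was sequenced as paired reads from low-input libraries, per the labels. The authors deposited FPKM values per gene and embryo, scaled within each line and stage. Trimmomatic 0.39, FastQC 0.11.9, STAR 2.7.6a, R 4.2.1, DESeq2 1.36.0 and build GRCm39 are named in the submitters' processing notes, with no role or order. How reads were counted, and with which strand option, is not given in the sources used here. For the Taf12 comparison at E3.5 the authors' deposited table holds the mean signal of normalized counts, a log2 fold change with its standard error, the Wald score, a p-value and an adjusted p-value for each gene.

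FPKM values depend on the other transcripts of a library, so levels were compared within a gene. Low values stepped by what 1 read is worth, and 99.99 to 100% of values up to 500 reads came out whole within 0.05, which gave 7.82 to 10.17 M reads per library. Differences of log2(FPKM + 1) were tested with limma 3.58.1 in R 4.3.3 (package data.table, version 1.17.8). The test was moderated with trend and robust settings, two-sided, with Benjamini-Hochberg adjustment over 12751 genes at FPKM 1 or more in at least 3 of the 13 libraries, of 56557 listed. Differences of effects were contrasts in 1 fit, over genes chosen on the Taf12 E3.5 libraries. Single values per library were compared by exact permutation. Intervals and the floor of 3 reads cover counting error only. The fits were tested on simulated data. Figures used Python 3.11.15 with pandas 2.3.3, numpy 2.4.6 and matplotlib 3.10.9.

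The members, gene lists and tests were chosen with earlier results of these data known. Named genes were Taf12, Taf5 and Taf13, up to 10 in either direction with the largest difference among those called with and without MUT 1 whose groups did not overlap (mean FPKM of 5 or more), up to 4 in either direction called in only 1 of these fits, up to 4 with the smallest p, up to 5 per gene list, and up to 4 for each difference of effects. Members of lists that were not called are given mainly as counts, and some named by the rule are not reported here. Nanog, Pou5f1, Gata6, Cdx2, Gata3, Dusp6 and the promoter genes were named after their values were seen. Alternatives were other pseudocounts, filters, scalings, control groups, a replicate block, voom on the recovered reads and leaving out libraries. Promoter windows came from RefSeq, build GRCm38.p6, and matched under 80% of the called genes, so no property of promoters was compared between gene sets.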

Additional observations from a re-analysis of the deposited data

Results flagged for a closer look

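In 7 of 113 groups of 10 control embryos behind the named genes, 1 embryo lay far from the other 9, where chance flags about 1 in 20. The WT 4 embryo was lowest for Sf3b5 at 1450 FPKM with the next at 1691, and WT 3 was lowest for Zfp57 at 38.1 with the next at 111. HET 1 was lowest for Pou5f1 at 826 with the next at 1387, highest for Plin2 at 146 with the next at 99.8, and the 1 control with Cnn1, at 5.002 FPKM. HET 4 was lowest for Oas1f at 14.3 with the next at 46.1, and HET 5 was lowest for Slc2a12 at 11.6 with the next at 55.3. The effect of Taf12 MUT at E3.5 differed from that of Taf13 MUT at the threshold of the limma contrast, as a difference of log2 effects, for Taf13 by 2.07, Fgf4 by −5.05, Etv5 by −4.02, H1f2 by 3.35, Ftl1 by 0.95, Rbfaos by −4.75, Nlrp14 by 3.11, Coil by 1.09, Cnn1 by 2.58, Tbrg1 by −0.95 and Ezr by −3.72. With each of 31 libraries left out in turn, the Nlrp14 difference was lost in 24 fits (adjusted p = 0.0883 without MUT 1, and up to 0.0981). The Rbfaos difference was lost in 5, without MUT 1 (adjusted p = 0.0742) and without Taf13 HET 2, Taf13 HET 4, Taf13 MUT 1 or Taf13 MUT 2 (up to 0.0995). Cnn1 was tested only because of the mutants, so its difference is no support for a change. It differed from that of Taf5 MUT for Taf5 by 7.16, Tdgf1 by −2.99, Ezr by −4.31 and Dynlt3 by −2.73. Among the genes described in outgrowths it differed between the stages for Taf12 by −0.70, Tada3 by −1.67, Fgf4 by −5.05, Myc by −3.66, Cdx2 by −2.67, Pck2 by −3.17, Birc5 by 2.34, Kif20a by 2.36, Eno1 by 1.83, Mdh2 by 0.57, Ftl1 by −1.52, Sri by −2.19, Thumpd2 by −5.91, Lsm4 by 1.49 and Tk1 by 2.92. The causes of these differences were not tested.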

How the results depend on the processing

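The 441 calls became 157 with no filter on low values (over 26001 genes), 33 against WT alone and 39 against HET alone, and ranged from 221 to 395 when 1 library was left out, with 274 without WT 2, 293 without WT 5 and 286 without HET 5. The 221 calls without MUT 1 became 13 against WT alone and 12 against HET alone, and ranged from 80 without MUT 3 to 211, with 108 without MUT 2 and 142 without WT 2. With the replicate number as a block 265 and 94 genes were called. Of 11 same-numbered pairs 3 correlated above 0.1 (range −0.12 to 0.25), the highest being WT 1 with HET 1, and 4 of 13 libraries correlated best with their own number. No rate for differently numbered pairs was set beside these, so whether the numbers pair the embryos stays unknown. Voom gave 413 and, without MUT 1, 240 calls. The 32 differences from Taf13 MUT became 13 with no filter, 1 against WT alone and 5 against HET alone, and ranged from 16 to 89 with 1 library left out (20, 60 and 89 without MUT 1, 2 and 3, and 16 to 20 without Taf13 HET 2, HET 4, MUT 2 or MUT 3). The 5 differences from Taf5 MUT became 10 with a pseudocount of 0.1 and 3 against WT alone, and ranged from 3 without Taf5 WT 3 to 40 without MUT 2, with 17 without MUT 1, 14 without MUT 3 and 13 without Taf5 WT 2. The 2026 differences from outgrowths became 828 and 960 against WT alone and HET alone. Genes above 0 differed by −1463 against WT alone (exact permutation p = 0.125) and by −2044 to −676 with 1 mutant left out. The share of the 50 highest genes differed by 1.19 points against WT alone (exact permutation p = 0.0536) and by 0.796 to 1.80 with 1 mutant left out. The share of mitochondrially encoded reads differed by 0.185 to 0.995 points and reads by −0.977 to −0.51 M with 1 mutant left out. Direction turned in 5 of 2285 gene results without MUT 1 and in 0 of 2394 with it. These were Gata3 against HET alone (−0.0513), with the block (−0.0423) and without MUT 2 (range −0.21 to 0.49), Nanog without MUT 3 (range −0.77 to 0.0461) and Gata6 without MUT 3 (range −0.58 to 0.0101), none of them called. The cause of these changes was not tested.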
